A study of Mus musculus with 12 samples.

Results

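The basement membrane collagen chains are the products of 8 genes. Col4a1, Col4a2, Col4a3, Col4a4, Col4a5 and Col4a6 encode the chains of collagen IV, and Col15a1 and Col18a1 encode collagens XV and XVIII. The 8 genes were chosen by name among the 55487 genes of the deposited count table, and all 8 were listed. Of these, Col4a1, Col4a2, Col4a5 and Col18a1 had enough reads to enter the test across 14175 genes, whereas Col4a3, Col4a4, Col4a6 and Col15a1 were at or near 0 and are given as counts. Besides these chains, the table listed 36 other collagen genes.

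The samples were cultures of C2C12, an established line of mouse muscle precursor cells, which stop dividing and join into myotubes once serum is reduced. All cultures were differentiated for 5 days in DMEM with 2% horse serum, and the medium was then replaced for 24 hours. The control group (6 libraries) received 4% horse serum and the treated group (6 libraries) received 4% STEM, a cell-free mixture of factors secreted by partially differentiated human embryonic stem cells, both in DMEM with antibiotics. STEM took the place of horse serum, so the addition of one and the removal of the other cannot be told apart. The comparison asks how a day of STEM in place of serum altered the RNA of basement membrane collagens in myotubes. Every library came from the same line. RNA was collected per well, but it is not stated whether each library was a separate well or a separate experiment. The p-values therefore measure the spread between libraries, which may be technical.

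A basement membrane is the thin sheet of matrix that wraps each muscle fibre and lies between it and its stem cells. Collagen IV chains assemble into triple helices inside the cell and, once secreted, into a network held together by crosslinks at their ends; the chains encoded by Col4a1 and Col4a2 form the network found in almost every tissue, while the chains encoded by Col4a3 to Col4a6 form networks restricted to tissues such as the kidney glomerulus and some epithelia. Collagen XVIII carries heparan sulfate chains and releases endostatin, an inhibitor of vessel growth, when it is cut near its end. Collagen XV is its relative, found beneath muscle fibres and capillaries, and its loss causes a mild myopathy in mice.

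The 6 collagen IV genes lie in pairs, head to head on opposite strands, and the arrangement is shown here because the pairs did not have the same levels. In the GENCODE annotation of build GRCm38, Col4a1 (ENSMUSG00000031502) spans 11198423 to 11312826 on the reverse strand of chromosome 8 and Col4a2 (ENSMUSG00000031503) spans 11312805 to 11449287 on the forward strand. Their first exons share 22 bases. Col4a4 (ENSMUSG00000067158, 82448423 to 82586849, reverse strand) and Col4a3 (ENSMUSG00000079465, 82586921 to 82722059, forward strand) start 72 bases apart on chromosome 1. Col4a6 (ENSMUSG00000031273, 141165403 to 141474076, reverse strand) and Col4a5 (ENSMUSG00000031274, 141475385 to 141689234, forward strand) start 1309 bases apart on chromosome X. Col15a1 (ENSMUSG00000028339, chromosome 4, 47208161 to 47313167, forward strand) and Col18a1 (ENSMUSG00000001435, chromosome 10, 77052178 to 77166548, reverse strand) have no such partner. All 8 are annotated as protein-coding, and counts are reads over the exons of a gene.

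RefSeq start windows (GRCm38.p6, from 250 bases before to 50 after the start) were given for 7 of the 8 genes. A script searched both strands of these windows for short motifs, whose matches may overlap. The GC box, spelled GGGCGG, was held by 35.7% of all 32851 windows of the same length. The CCAAT box, searched by those letters, was held by 37.4% of them. The TATA box, spelled TATAAA, was held by 13.6%. The stretch CCCTCCCC was held by 10.8%. A few stretches are printed, read 5′ to 3′ on the strand named, with matches in capitals. The first is the stretch shared by the starts of Col4a1 and Col4a2, the pair with high counts. The other sequences are the bases before the starts of Col18a1, which had the largest change among the chains tested, and of Col15a1, its relative with almost no reads.
Col4a1 and Col4a2 shared start, chr8:11312805-11312826, forward strand: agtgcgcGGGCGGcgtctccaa
Col18a1 upstream, chr10:77166531-77166780, reverse strand: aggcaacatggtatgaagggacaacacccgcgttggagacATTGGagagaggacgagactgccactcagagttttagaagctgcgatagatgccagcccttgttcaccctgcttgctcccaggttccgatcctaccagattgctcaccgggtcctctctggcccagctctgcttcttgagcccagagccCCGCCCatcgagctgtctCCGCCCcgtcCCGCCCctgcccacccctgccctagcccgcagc
Col15a1 upstream, chr4:47207762-47208011, forward strand: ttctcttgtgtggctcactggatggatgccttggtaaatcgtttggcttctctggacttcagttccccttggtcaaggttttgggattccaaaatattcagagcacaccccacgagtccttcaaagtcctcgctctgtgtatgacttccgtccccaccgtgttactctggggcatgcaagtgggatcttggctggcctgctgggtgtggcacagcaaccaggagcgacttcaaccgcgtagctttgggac

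The Col18a1 window held 3 GC boxes and 1 CCAAT box. The Col4a1 and Col4a2 windows, which overlap, held 1 and 3 GC boxes and each held 1 CCAAT box and 1 copy of CCCTCCCC. The GC box of the Col4a1 window and the copy of CCCTCCCC lie in the overlap and are counted in both windows. The Col4a5 window held 1 of each of these motifs and that of Col4a6 held 1 GC box. The Col15a1 and Col4a4 windows held none of the 4 motifs, and no window of the 7 genes held TATAAA. The windows of Col4a1 and Col4a2 were 74.0% and 73.7% G or C, compared with 63.3% for both Col18a1 and Col4a4, 52.7% for Col4a5, 52.3% for Col15a1, 48.3% for Col4a6 and a median of 52.7% over all windows. CpG dinucleotides numbered 37 in the Col4a1 window, 33 in that of Col4a2, 16 in that of Col18a1, 14 in that of Col4a4, 11 in that of Col4a5, 8 in that of Col15a1 and 3 in that of Col4a6, with a median of 7 over all windows. Col4a4, with almost no reads, and Col18a1, with many, were thus alike in both measures. Of all windows, 10.8% overlapped the window of another gene on the opposite strand. A second annotated Col18a1 start, at 77113705, held none of the motifs, and counts per gene cannot tell its transcripts from those of the first start.

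Libraries held 13285472 to 24536264 counts on genes. Horse serum library 6 stood apart from the other 5 of its group. On the first principal component (44.2% of the variance) it lay at 11.2, between the other horse serum libraries (-35.5 to -24.6) and the STEM libraries (15.5 to 28.6), and it lay alone on the second, at 53.3. Its summed level of 13 myotube markers was 12804 CPM (counts per 1e6 counts on genes, scaled between libraries), against 19860 to 22446 CPM in the other horse serum libraries and 17758 to 23776 CPM with STEM. Results are therefore given with and without this library for the tested chains and for some other genes and lists. Its part in them beyond these values was not tested.

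**Figure D1:**
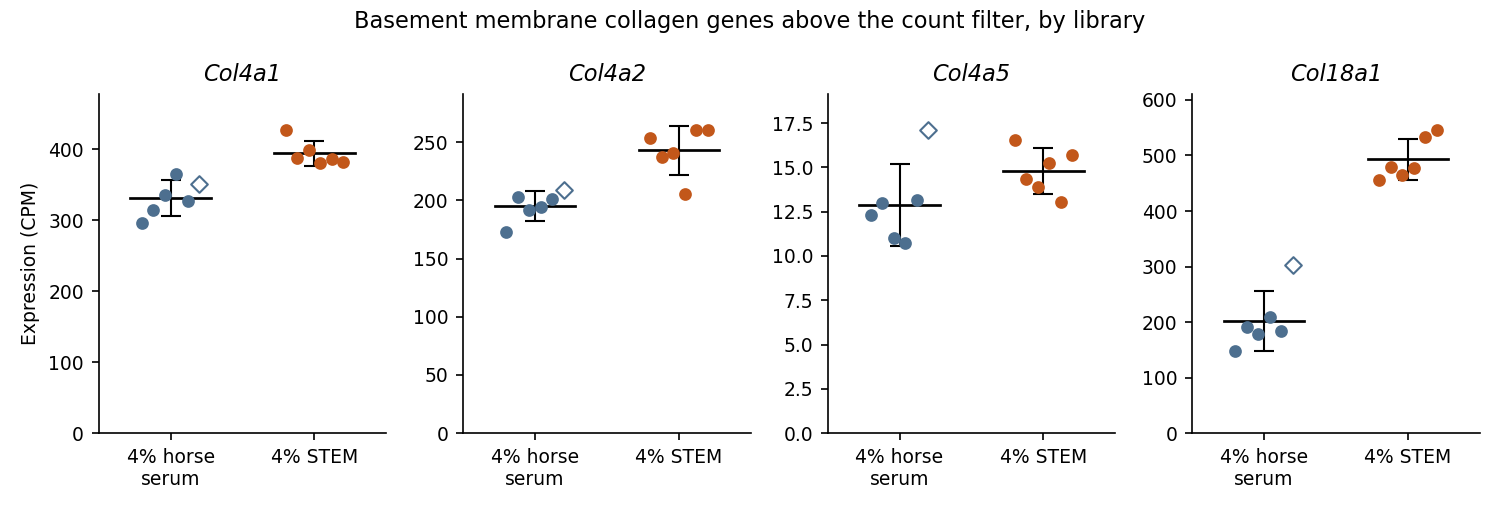
Level of each of the 4 tested chains (vertical axes, CPM, starting at 0) in each library of the horse serum and STEM groups; points are libraries, the open diamond is horse serum library 6, and bars are the mean ± SD of 6 libraries. All 6 STEM libraries lie above every horse serum library for Col4a1 and Col18a1, 5 of 6 do so for Col4a2 and 0 of 6 for Col4a5.

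Col18a1 was 2.44-fold higher in STEM-treated myotubes, a log2 fold change of 1.29, and Col4a1 and Col4a2 were 1.19-fold and 1.25-fold higher. These 3 chains passed the test and Col4a5 did not. Of all tested genes 36.4% passed, with 18.9% of all tested genes higher and 17.4% lower with STEM, so passing was common, and no tested chain fell. The median log2 fold change was 0.28 over the 4 tested chains and 0.01 over all tested genes. Because these are bulk libraries, a change in the number of cells of a type and a change in RNA per cell cannot be told apart.

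Col4a1, which contributes most of the chains of the common collagen IV helix, had a lowest, median and highest level of 296, 332 and 366 CPM in horse serum and of 381, 387 and 428 CPM with STEM. The groups did not overlap, and the highest library was STEM library 7. Groups that do not overlap were found for 8.68% of all tested genes in the direction higher with STEM and for 8.52% in the other direction. The mean rose from 332 ± 24.96 to 394 ± 17.5 CPM (SD, n = 6 libraries each), a log2 fold change of 0.25 (SE 0.054, adjusted p = 0.0022, edgeR quasi-likelihood test with Benjamini-Hochberg adjustment).

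Col4a2, the partner of Col4a1 in the helix, ranged from 173 to 209 CPM around a median of 198 in horse serum and from 205 to 260 CPM around a median of 247 with STEM. STEM library 10, the lowest of its group, lay below the highest horse serum library (library 6), and the other 5 STEM libraries lay above all horse serum libraries. The mean rose from 195 ± 12.6 to 243 ± 20.9 CPM (SD, n = 6 each), a log2 fold change of 0.32 (SE 0.062, adjusted p = 0.00106, edgeR). Without horse serum library 6 the log2 fold changes of Col4a1 and Col4a2 were 0.27 and 0.34.

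Because Col4a1 and Col4a2 start within the same 22 bases on opposite strands, their ratio within a library was compared. Per exon length, Col4a2 stood at 0.665 ± 0.0426 of Col4a1 in horse serum and at 0.695 ± 0.0594 with STEM (SD, n = 6 each). The ratio ranged from 0.5997 to 0.725 in horse serum and from 0.608 to 0.767 with STEM. The log2 difference of 0.06 did not pass an exact two-sided permutation test (p = 0.353, adjusted p = 0.423 over the 6 ratios tested), and the groups overlapped. Between libraries of a group, the coefficients of variation in horse serum and STEM were 6.40% and 8.54% for the ratio, 7.53% and 4.44% for Col4a1 and 6.43% and 8.58% for Col4a2. With STEM the ratio thus varied more than Col4a1 did.

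Col4a5, a chain of the restricted networks, was the only other collagen IV chain that passed the filter on low counts. It had a lowest, median and highest level of 10.7, 12.7 and 17.1 CPM in horse serum and of 13.04, 14.8 and 16.6 CPM with STEM. The highest of the 12 libraries was horse serum library 6, and no STEM library exceeded it. The means were 12.9 ± 2.30 and 14.8 ± 1.28 CPM (SD, n = 6 each), a log2 fold change of 0.20 with a 95% interval of -0.01 to 0.40 (SE 0.106, adjusted p = 0.165, edgeR). Without horse serum library 6 it was 0.30 and passed the test (SE 0.082, adjusted p = 0.00489, edgeR), so 1 library decided this call. That fit called 7245 of 14267 tested genes, against 5155 of 14175 with all libraries. Per exon length Col4a5 stood at 0.0433 ± 0.00772 of Col4a1 in horse serum and at 0.0417 ± 0.00323 with STEM, a log2 difference of -0.04 (p = 0.740, adjusted p = 0.740, exact permutation test).

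Col4a6, the head-to-head neighbour of Col4a5, had 1 to 11 counts per library in horse serum and 2 to 11 with STEM, 21 and 31 counts in all. Horse serum library 6 and STEM library 10 each held 11 counts, and the groups overlapped. With no filter on low counts its log2 fold change was 0.46 (SE 0.52, adjusted p = 0.581, edgeR), so a difference was not detectable at this depth.

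Col4a3 and Col4a4, the pair that forms the glomerular network with Col4a5, were at the limit of the libraries. Col4a3 had 1 count in STEM library 7 and 0 in the other 11 libraries. Col4a4 had 1 count in each of horse serum library 5, STEM library 7 and STEM library 11 and 0 elsewhere. A count of 0 allows up to 3 counts, or 0.122 to 0.232 CPM depending on the library, for counting error only, and no fold change is given. The 3 pairs thus ran from 173 CPM or more for both genes in every library, over a pair of which Col4a5 was above the filter and Col4a6 was below it, to at most 1 count in any library for both.

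Col18a1 had a lowest, median and highest level of 148, 187 and 303 CPM in horse serum and of 457, 479 and 546 CPM with STEM. All STEM libraries lay above all horse serum libraries. Horse serum library 6 was the highest of its group, and the other 5 reached 209 CPM. The mean rose from 202 ± 53.2 to 493 ± 37.5 CPM (SD, n = 6 each), a log2 fold change of 1.29 (SE 0.137, adjusted p = 1.56e-05, edgeR). Without horse serum library 6 it was 1.44 (SE 0.078, adjusted p = 2.91e-09, edgeR). The gene Slc19a1 overlaps the Col18a1 locus on the opposite strand, but shares 0 exon bases with it and had 117 to 234 counts per library.

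Col15a1, the relative of Col18a1, had 0 to 2 counts in the horse serum libraries and 0 or 1 in the STEM libraries, and no fold change is given. In these cultures, therefore, reads of the collagen XV and XVIII pair came almost entirely from Col18a1.

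**Figure D2:**
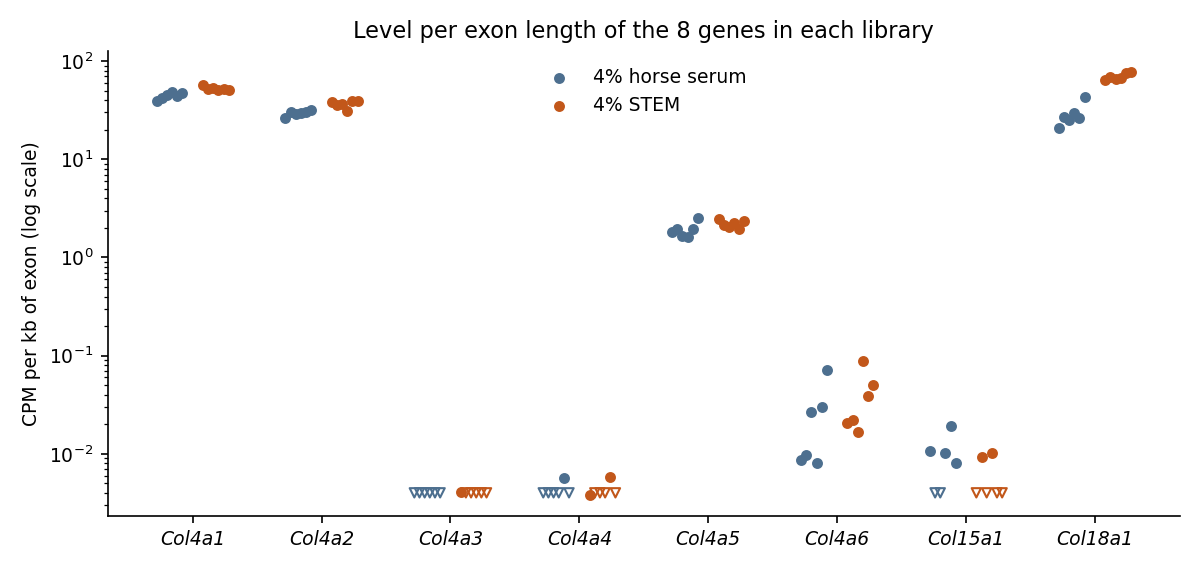
Level of the 8 chains per kilobase of exon (CPM per kb, log axis) in every library of the horse serum and STEM groups. Filled points are libraries with counts and open triangles are libraries with 0 counts. Col4a1, Col4a2 and Col18a1 lie between about 20 and 80 CPM per kb, Col4a5 near 2, and the other 4 chains below 0.2.

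To compare the chains with each other, levels were divided by the length of all annotated exons of a gene. In horse serum Col4a1 stood first at 44.4 ± 3.34 CPM per kb, followed by Col4a2 at 29.5 ± 1.90, Col18a1 at 28.8 ± 7.58 and Col4a5 at 1.92 ± 0.342 CPM per kb (SD, n = 6). Col4a2 and Col18a1 did not differ beyond their spread, and Col18a1 was the higher of them in 2 of 6 horse serum libraries. With STEM the order was Col18a1 at 70.2 ± 5.34, Col4a1 at 52.8 ± 2.35, Col4a2 at 36.7 ± 3.15 and Col4a5 at 2.20 ± 0.191 CPM per kb.

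The order of Col18a1 and Col4a1 within a library differed between the groups. Col18a1 was above Col4a1 in 6 of 6 STEM libraries and in 0 of 6 horse serum libraries. The ratio Col18a1/Col4a1 per exon length was 0.644 ± 0.140 in horse serum and 1.33 ± 0.141 with STEM, a log2 difference of 1.07 (p = 0.00216, the smallest p that an exact permutation of 6 against 6 libraries can give; adjusted p = 0.00649). Horse serum library 6 had a ratio of 0.918 and the lowest STEM ratio was 1.14. With the longest annotated transcript as the length, Col18a1 was above Col4a1 in 1 of 6 horse serum libraries (library 6, at 1.02), and above Col4a2 in 5 of 6 horse serum libraries in place of 2, so the order in horse serum rests on the length used, while the order with STEM was the same by either length.

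As a share of the summed level per length of the 8 chains, Col18a1 made up 27.2% ± 3.88 in horse serum and 43.3% ± 2.17 with STEM. Col4a1 made up 42.7% ± 2.71 and 32.7% ± 1.95, and Col4a2 28.3% ± 1.85 and 22.6% ± 1.16 (SD, n = 6 each). The shares of Col4a1 and Col4a2 were thus lower with STEM although the levels of both genes rose, beside the larger rise of Col18a1. Col4a5 made up 1.83% ± 0.245 and 1.36% ± 0.132, and Col4a6 a mean of 0.0232% and 0.0246%.

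Among the 44 collagen genes listed, ranked by mean level per length, Col18a1 stood at place 12 in horse serum and place 7 with STEM. Col4a1 stood at places 8 and 10, Col4a2 at places 11 and 14, and Col4a5 at place 18 in both groups. Among all 14175 tested genes, Col18a1 stood at place 1704 in horse serum and 659 with STEM, and Col4a1 at 1102 and 903. The places of Col4a1 and Col4a2 among collagens were lower with STEM while their places among all genes were higher.

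**Figure D3:**
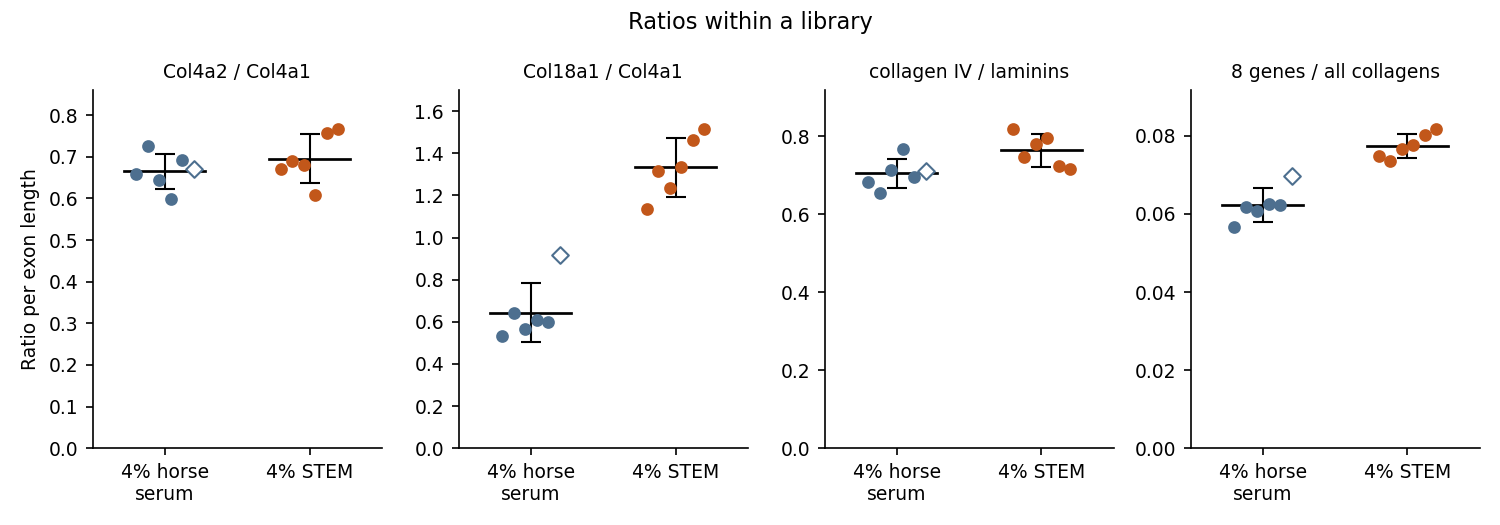
Ratios within each library, per exon length, on axes from 0, for the horse serum and STEM groups; points are libraries, open diamonds are horse serum library 6 and bars are mean ± SD. The ratio Col18a1/Col4a1 runs from 0.532 to 0.918 in horse serum and from 1.14 to 1.52 with STEM. The ratios Col4a2/Col4a1 and collagen IV to laminin chains overlap between groups, and that of the 8 chains to all collagen chains does not.

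The chains were next set against other matrix genes of the same library. All 8 chains together stood at 0.0623 ± 0.00423 of the summed level of all collagen chains in horse serum and at 0.0774 ± 0.00312 with STEM (SD, n = 6 each). All 6 STEM libraries were above all horse serum libraries, with a log2 difference of 0.32 (p = 0.00216, adjusted p = 0.00649, exact permutation test). Col18a1 made up 27.2% of the sum of the 8 chains in horse serum and 43.3% with STEM. This ratio therefore does not show a rise of collagen IV against all collagen chains, which was not tested by itself. The summed collagen IV chains stood at 0.0958 ± 0.00242 of Col1a1, Col1a2 and Col3a1, chains of collagens I and III, in horse serum. With STEM they stood at 0.104 ± 0.00386. This ratio was higher in 5 of 6 STEM libraries than in any horse serum library. The log2 difference was 0.12 (p = 0.00649, adjusted p = 0.013, exact permutation test). The fibrillar chains Col5a2 and Col5a1 were left out of the sum. In horse serum they stood at 285 and 120 CPM per kb, above Col1a1 at 55.9.

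Laminins are the other network of the basement membrane. The ratio of summed collagen IV chains to summed laminin chains was 0.705 ± 0.0381 in horse serum and 0.764 ± 0.0414 with STEM, and 3 of 6 STEM libraries lay above all horse serum libraries. The log2 difference was 0.12 (p = 0.0303, adjusted p = 0.0455, exact permutation test). Leaving out any of 8 of the 12 libraries, one at a time, ended this call, with log2 differences of 0.10 to 0.12 and an adjusted p of 0.0649 to 0.0909 by the exact permutation test.

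Other proteins of the basement membrane did not move one way. Of 23 tested genes of 27 listed, 7 rose and 4 fell, which is 47.8% called beside 36.4% of all tested genes, with a median log2 fold change of 0.07. Sparc, a matrix protein that binds collagen IV, rose by 0.49 on the log2 scale (adjusted p = 2.06e-06, edgeR), Smoc2, its relative, rose from 13.4 to 25.7 CPM (log2 fold change 0.94, adjusted p = 3.03e-06), and Tinagl1 (1.05) and the laminin chain Lamb3 (0.35) rose as well. The laminin chains Lama1 (1.87, adjusted p = 0.00312, edgeR) and Lamb2 (0.24, adjusted p = 0.0147), of which Lama1 was named after its values were seen, also rose. Lama1 had 9.02 CPM in horse serum library 6 and 0.891 to 3.08 CPM in the others of its group. Without library 6 the log2 fold change of Lama1 was 2.56. Among the chains of the main laminins of muscle, Lamc1 rose from 136 ± 10.3 to 167 ± 14.3 CPM (0.29, adjusted p = 0.00198), Lama2 fell from 132 ± 11.3 to 105 ± 9.86 CPM (-0.33, adjusted p = 0.00175) and Lamb1 was at 215 ± 17.1 and 211 ± 7.003 CPM (-0.02, adjusted p = 0.749).

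The linkers that join laminin to collagen IV did not rise. Nid2 fell from 269 ± 25.1 to 228 ± 19.7 CPM (-0.24, adjusted p = 0.0152, edgeR), and its relative Nid1 had 188 ± 16.6 and 165 ± 21.3 CPM (-0.19, adjusted p = 0.093). Of the heparan sulfate proteoglycans that share the sheet with collagen XVIII, Hspg2 (perlecan) had 313 ± 73.7 and 450 ± 165 CPM (0.52, SE 0.25, adjusted p = 0.126) and ranged from 237 to 667 CPM with STEM. Agrn (agrin) had 37.7 ± 4.35 and 39.3 ± 4.62 CPM (0.06, adjusted p = 0.657). Col18a1 was thus the heparan sulfate carrier among these 3 that passed the test. The remaining genes of the list that fell, named after their values were seen, were Frem1 (-0.82) and Vwa1 (-1.40). Vwa1 had 15.7 CPM in horse serum library 6, below all STEM libraries (18.5 to 31.7 CPM). The others of the horse serum group had 65.3 to 92.1 CPM.

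**Figure D4:**
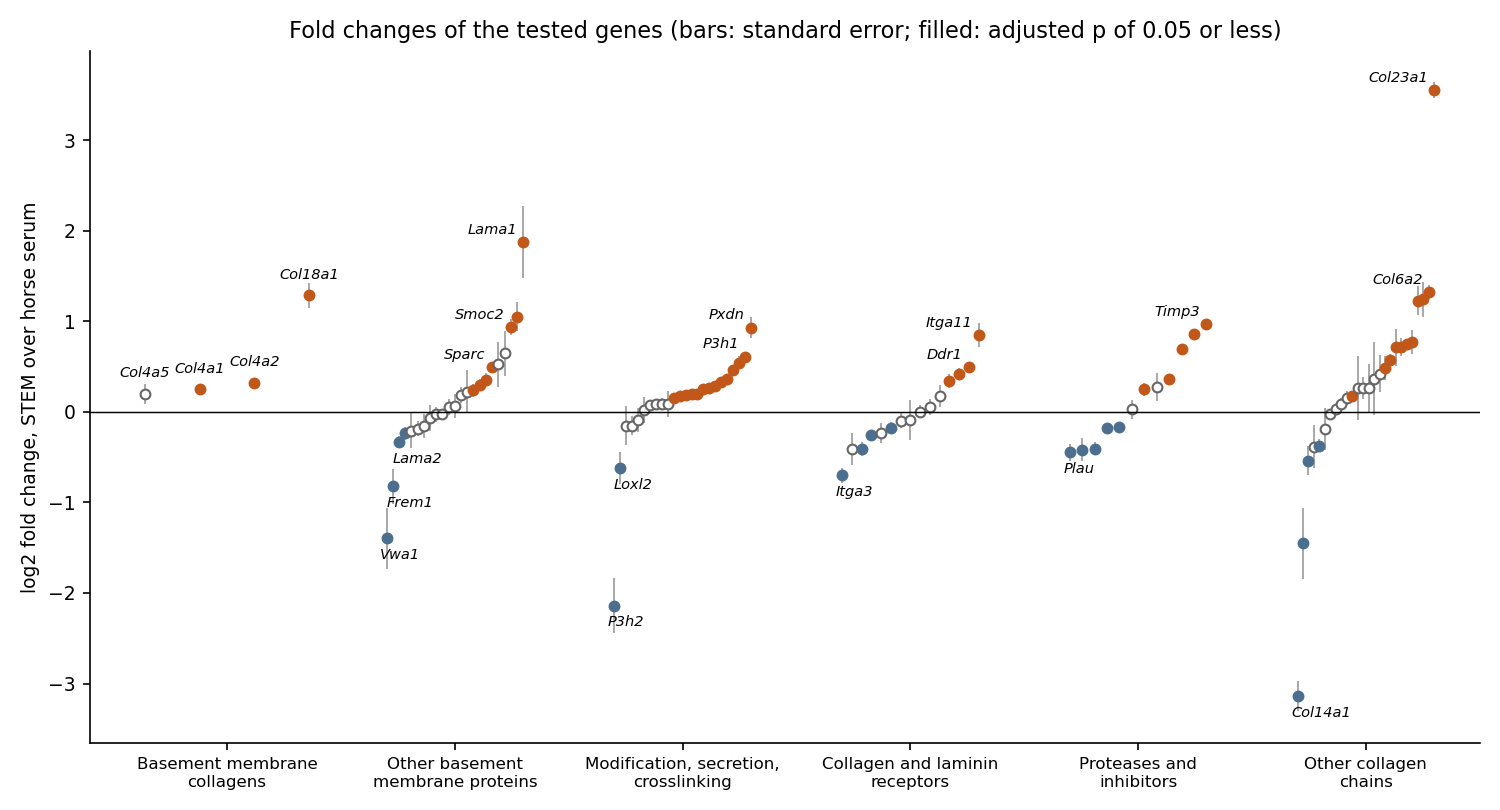
Log2 fold change, STEM over horse serum (vertical axis), with its standard error, of each tested gene of the basement membrane collagens and of 5 lists of related genes, ordered by size within each list; filled points passed at an adjusted p of 0.05. Col18a1 lies at 1.29, the enzyme P3h2 at -2.14 and the crosslinking enzyme Pxdn at 0.93.

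Collagen chains are hydroxylated, folded, secreted and crosslinked by a shared set of proteins. Of 24 tested genes of this list of 25, 14 rose and 2 fell, which is 66.7% called beside 36.4% of all tested genes, with a median log2 fold change of 0.18. Without horse serum library 6, 14 rose and 5 fell, beside 7245 of 14267 tested genes called in that fit. The added genes were the hydroxylases P4ha2 (-0.31), Plod1 (-0.24) and Plod2 (-0.20), named after their values were seen. P3h1, a prolyl hydroxylase that acts on fibrillar collagens, rose from 68.0 ± 3.74 to 104 ± 5.86 CPM (0.61, adjusted p = 5.56e-07, edgeR). Fkbp10, a collagen chaperone of the endoplasmic reticulum, rose from 135 ± 18.6 to 196 ± 8.19 CPM (0.54, adjusted p = 5.37e-05), and Mia2, which helps load large cargo at exit sites, by 0.46 on the log2 scale (adjusted p = 4.39e-05).

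Enzymes that act on collagen IV in particular moved in opposite directions. Pxdn encodes peroxidasin, which makes the sulfilimine bonds between collagen IV helices, and had a lowest, median and highest level of 167, 212 and 311 CPM in horse serum and of 378, 411 and 470 CPM with STEM. The groups did not overlap and horse serum library 6 was the highest of its group. The log2 fold change was 0.93 (SE 0.12, adjusted p = 4.7e-05, edgeR), larger than those of Col4a1 and Col4a2. P3h2, a prolyl hydroxylase that acts on collagen IV, had 2.46, 7.40 and 10.4 CPM in horse serum and 1.10, 1.41 and 2.37 CPM with STEM. Horse serum library 6, at 2.46 CPM, was just above the highest STEM library, and the other 5 had 7.01 CPM or more. Its log2 fold change was -2.14 (SE 0.30, adjusted p = 0.000101, edgeR) with this library and -2.32 without it. The other gene of the list that fell was Loxl2 (-0.62, adjusted p = 0.0167), a lysyl oxidase, named after its values were seen.

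Cells hold collagens and laminins through integrins and discoidin domain receptors. Of 15 tested receptor genes of 17, 4 rose and 4 fell, which is 53.3% called beside 36.4% of all tested genes, and the median log2 fold change was -0.09 with horse serum library 6 and 0.05 without it. The collagen receptors Ddr1 (0.49, adjusted p = 2.58e-06, edgeR), Ddr2 (0.42, adjusted p = 9.15e-05) and Itga11 (0.84, adjusted p = 0.000272) rose. Itga3, a laminin receptor subunit, fell from 59.5 ± 6.44 to 36.6 ± 4.06 CPM (-0.70, adjusted p = 1.74e-05). Among the subunits of the integrins that bind collagen IV, Itga1 had 9.42 ± 1.65 and 8.08 ± 0.611 CPM (-0.23, adjusted p = 0.114), Itgb1, their common partner, fell by 0.17 on the log2 scale (adjusted p = 0.0247), and Itga2 had at most 5 counts in any library. Dag1 also rose (0.34) and Itga6 (-0.41) and Itga7 (-0.26) also fell, named after their values were seen.

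Among proteases of the basement membrane and their inhibitors, 12 of 22 were tested, 5 rose and 5 fell, which is 83.3% called beside 36.4% of all tested genes. Timp3, an inhibitor held in the matrix, rose from 253 ± 11.6 to 494 ± 24.5 CPM (0.97, adjusted p = 4.76e-09, edgeR), Plat, the tissue plasminogen activator, rose by 0.86 (adjusted p = 9.57e-08), Bmp1, a procollagen protease, rose from 159 ± 14.4 to 257 ± 5.35 CPM (0.69, adjusted p = 4.2e-07) and Timp2 rose by 0.36 (adjusted p = 0.000113), all on the log2 scale. Of the gelatinases that cut collagen IV, Mmp2 fell by 0.18 (adjusted p = 0.00614) and Mmp9 had at most 5 counts in any library. Mmp14, which activates the product of Mmp2, had 222 ± 71.0 and 269 ± 10.9 CPM (0.27, adjusted p = 0.184), with 364 CPM in horse serum library 6, and passed without that library (0.47, adjusted p = 1.61e-07). The other genes that passed, named after their values were seen, were Htra1 (0.25), Ctsb (-0.17), Ctsl (-0.41), Timp1 (-0.42) and Plau (-0.45).

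Of the 36 other collagen chains, 26 were tested, 11 rose and 4 fell, which is 57.7% called beside 36.4% of all tested genes, with a median log2 fold change of 0.26. Without horse serum library 6, 14 rose and 4 fell, with a median of 0.33, beside 7245 of 14267 tested genes called in that fit. The lowest p-values belonged to Col23a1 (3.55), a transmembrane collagen, Col14a1 (-3.14), a fibril-associated collagen, and Col6a2 (1.32) and Col6a1 (0.75), chains of the microfibrils that lie next to the basement membrane. The log2 fold change of Col18a1 lay within this range, near that of Col6a2. Those of Col4a1 and Col4a2 lay near the median of the list. The other chains that fell, named after their values were seen, were Col12a1 (-0.37), Col17a1 (-0.54) and Col19a1 (-1.45).

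For each tested chain, the genes with the most similar pattern were found among the other 14174 tested genes, by the root mean square difference of log2 CPM centred on each gene over the 12 libraries. For Col18a1 they were Col6a3 (0.101), Col6a2 (0.124) and Sh3bgrl2 (0.130). For Col4a1 they were Caml (0.0583), Rrp8 (0.0644) and Riok1 (0.0652), for Col4a2 Mmp15 (0.0592), Lamb2 (0.0703) and Jam2 (0.0736), and for Col4a5 Nle1 (0.0960), Lysmd2 (0.0998) and Ercc6l2 (0.103). The pair partner of Col4a1 was not among its nearest genes, since Col4a2 came at place 474 with a difference of 0.105, and Col4a1 came at place 123 for Col4a2. From Col18a1, Col4a2 was at place 1501 (0.539) and Col4a1 at place 2115 (0.572). The measure is small for any gene that varied little, and it is given as a description.

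Markers of cell types that make basement membrane collagens were read in the same libraries. Of 7 endothelial markers none was tested, their summed level was 0.423 to 1.02 CPM in horse serum and 0.612 to 1.01 CPM with STEM, and Pecam1, Kdr, Cldn5 and Emcn had at most 3 counts in every library. Schwann cell markers summed to 0.685 to 1.98 and 0.796 to 1.84 CPM with Sox10 at that level, adipocyte markers to at most 0.274 CPM, and macrophage markers to 2.97 to 5.41 and 4.65 to 6.00 CPM with Ptprc and Adgre1 at that level, and none of these passed.

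Of 6 smooth muscle and pericyte markers, 4 were tested and Cnn1 (0.91), Acta2 (0.34) and Pdgfrb (0.76) rose with STEM, as Col18a1, Col4a1 and Col4a2 did. Their summed level was 1838 to 2610 CPM in horse serum, highest in library 6, and 2526 to 3042 CPM with STEM, while Rgs5 had at most 3 counts in every library. Of 5 fibroblast markers, 3 were tested and Pi16 rose (2.83), while Lum and Thy1 had at most 3 counts in every library. The list summed to 16.7 to 30.6 CPM in horse serum, again highest in library 6, and 27.98 to 32.6 CPM with STEM. In library 6 Pdgfra was the highest of the horse serum group at 24.8 CPM, but Dcn was the lowest at 4.71 CPM. Of 7 markers of myoblasts and proliferation, 5 fell with STEM. The summed level of the 7 was 627 to 999.8 CPM in horse serum, highest in library 6, and 484 to 571 CPM with STEM. The sum mixes proliferation markers with the myoblast markers Pax7 and Myf5, named after their values were seen. Unlike the sum, Pax7 and Myf5 were each at their lowest of the horse serum group in library 6. Pax7 overlapped between the horse serum and STEM groups. Of 13 myotube markers, Mymk rose (0.36) and Myog (-0.29) and Myh8 (-1.25) fell. Myh8 was at 79.8 CPM in horse serum library 6, below all STEM libraries (181 to 294 CPM). The other horse serum libraries held Myh8 at 598 to 775 CPM. Beside the counts of markers that rose or fell, 18.9% of all tested genes rose with STEM and 17.4% fell. The part of these cell populations in the changes of the collagen chains was not tested.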

How the data were processed

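The 12 libraries were stranded and ribosomal RNA-depleted, made from total RNA of myotube cultures. The values deposited by the authors are raw counts of reads per gene, and the submitters' processing notes name STAR 2.7.3a, featureCounts 1.6.3, DESeq2 1.26.0 and GRCm38; parameters, annotation release and strand setting of the counting are not given in the sources used here. Gene names and exon lengths came from GENCODE M21 (GRCm38), and 260 listed genes without an entry held 0.00268% of counts. Groups came from the sample labels. Genes were filtered with filterByExpr, scaled by TMM and tested with the quasi-likelihood test of edgeR 4.0.16 (R 4.3.3) with Benjamini-Hochberg adjustment over all 14175 tested genes, called at 0.05, after the script was tested on simulated data. CPM are counts per 1e6 counts on genes after TMM scaling. Ratios within libraries were tested by exact two-sided permutation (scipy 1.17.1, 924 splits) where both sides had over 3 counts in every library, which 6 of 10 planned ratios met. Alternatives were DESeq2 1.42.0, limma-voom 3.58.1, other scalings, other filters, another gene length, ratios without length, a pseudocount of 0.5 and leaving out each library.

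The chains and all lists were chosen with earlier results of these data known. Named genes were every chain, in each of 5 lists the 4 called genes with the lowest p-value, 15 genes that modify, bind or cut basement membrane collagens whatever their result, and for each tested chain the 3 genes of most similar pattern; others are marked as named after their values were seen. Libraries of a group differed by more than counting noise (chi-square per degree of freedom 3.29 to 68.5). Floors of 3 counts cover counting error only. 1 list of marker genes is not reported here.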

Additional observations from a re-analysis of the deposited data

Results flagged for a closer look

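Dixon's test was applied to 20 sets of 6 values, the levels and ratios of the chains in each group at its 95% critical value, and chance alone marks about 1 in 20 sets. It marked 2. The ratio Col18a1/Col4a1 was 0.918 in horse serum library 6, far from the next highest of its group at 0.643, and the gap was 0.714 of the group's range. The lowest STEM ratio, 1.14, was still above it. The ratio of collagen IV to the fibrillar chains Col1a1, Col1a2 and Col3a1 was 0.0971 in STEM library 8, below the next lowest of its group at 0.104, with a gap of 0.641 of the range, and this library alone of the STEM group lay within the range of the horse serum libraries, whose highest ratio was 0.0983.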

How the results depend on the processing

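The calls of Col4a1, Col4a2 and Col18a1 and their direction held under all 19 alternatives of test, scaling, filter and left-out library, with log2 fold changes of 0.22 to 0.28, 0.28 to 0.36 and 1.21 to 1.44. Col4a5 ranged from 0.15 to 0.30 (adjusted p from 0.00489 to 0.33 with edgeR), and it passed only without horse serum library 6 (log2 fold change 0.30). The ratio Col4a5/Col4a1 also changed its sign without that library, from -0.04 to 0.0287, with a range of -0.12 to 0.0287 over the left-out libraries, and passed in no setting. The ratio of collagen IV to laminin chains lost its call without horse serum library 1, 2, 3, 5 or 6 or STEM library 7, 9 or 10, with log2 differences of 0.10 to 0.12 in these settings and of 0.10 to 0.14 over all left-out libraries. The other ratios kept their calls. When a library was left out, the genes called numbered 4459 to 7245 over all genes, each within 1.5 times the 5155 called with all libraries, and 3 to 4 of the tested chains, the highest of both without horse serum library 6. Without that library the genes that fell in the collagen modification list went from 2 to 5. Those that rose among the other collagen chains went from 11 to 14. With the longest transcript as length, Col4a1 was at 50.1 and 59.6 CPM per kb in horse serum and STEM and Col18a1 at 88.1 CPM per kb with STEM. Other scalings moved the median of all genes by at most 0.02 on the log2 scale. No paired analysis was possible because the groups share no library numbers. Depth limits Col4a3, Col4a4, Col4a6 and Col15a1, for which a difference could not be seen; for none of the others was the cause of a lost call tested.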
